A study of Homo sapiens with 12 samples.

Results

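The 10 genes described here, AIFM2, GPX4, SLC7A11, ACSL4, FTH1, FTL, TFRC, NCOA4, HMOX1 and NQO1, act in ferroptosis, in iron handling and in the NRF2 defence against oxidants. They are 10 of the 62656 genes in the deposited count table, and all 10 passed the filter on low counts in every comparison. They were chosen by their function and from their changes within both cell lines, which were known, so their changes within a line are a description here and carry no p-value.

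The study sequenced RNA of HCT116 and LoVo, which are both human colorectal cancer cell lines, in 12 libraries, 3 for each of 4 groups. The groups were HCT116 with overexpression (OE) of SLERT, HCT116 control, LoVo with knockdown (KD) of SLERT, and LoVo control. SLERT, a long non-coding RNA, comes from introns of TBRG4 and has a snoRNA at each end. In the tables, the columns taken as the overexpression control are headed Vector. The knockdown columns are headed Sh and the LoVo control columns ShNC, taken as a negative control shRNA. Nothing in the labels says whether a group is 1 clone, a pool or separate cultures. The p-values therefore measure only the spread between these libraries, which may be technical.

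Ferroptosis is a form of cell death in which iron drives the peroxidation of membrane lipids. GPX4 reduces lipid peroxides with glutathione, which depends on cystine taken up through SLC7A11, and AIFM2, also called FSP1, keeps coenzyme Q reduced as a separate defence. Iron enters through TFRC, is stored in ferritin made of FTH1 and FTL, and is freed again when NCOA4 carries ferritin to lysosomes. NRF2, encoded by NFE2L2 and held down by KEAP1, is a transcription factor that drives many of these genes, HMOX1 and NQO1 among them.

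Total counts ran from 14.46 to 17.23 M per library. Levels are counts per 1e6 counts (CPM) on a common TMM scale, and a gene is called where the edgeR adjusted p is under 0.05 over all genes tested. SNORA5C, an end of SLERT, had 1926 counts over the 3 OE libraries and 16 over the 3 HCT116 controls. It had 37 counts over the 3 LoVo KD libraries and 37 over the 3 LoVo controls (log2 fold change -0.02, 95% interval -0.92 to 0.87). SLERT has no row of its own, so genes of its locus stand in for it. SNORA5A had 142 counts over OE and 0 over HCT116 control. In LoVo it had 10 over KD and 12 over control, too few to be tested. TBRG4 was called higher with OE (log2 fold change 0.66) and was not called in LoVo (0.07). No fall was called at these genes in LoVo, and the LoVo libraries are named by their label. Summed colorectal epithelial markers ran from 4656 to 8067 CPM over the 12 libraries, with CDX1 at 0 in both HCT116 groups. Summed leukocyte, retina and hepatocyte markers reached at most 3.77, 1.09 and 0.96 CPM in any library. The 5 fibroblast and endothelial markers summed to 72.1 to 77.8 CPM in HCT116 OE and 80.2 to 86.6 CPM in HCT116 control, and to 2.62 to 4.10 CPM in LoVo KD and 14.1 to 14.8 CPM in LoVo control. CDH5 was at 0 in both LoVo groups and in HCT116 OE, and the part of these markers in the results was not tested.

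In HCT116, AIFM2 was the only member called with SLERT overexpression, higher by 1.32-fold. In LoVo labelled SLERT knockdown, SLC7A11 and ACSL4 rose by 1.37-fold and 1.24-fold, and FTL, TFRC, HMOX1 and NQO1 fell. GPX4, FTH1 and NCOA4 were not called in either line. Thus 1 of 10 members was called in HCT116, where 0.914% of the 15980 genes tested were called, and 6 of 10 in LoVo, where 26.3% of 16253 genes were called. Of the 6, 2 were higher, against 12.6% of all genes called higher, and 4 were lower, against 13.7% called lower. The members were chosen on these changes, so nothing is read from their counts. The median log2 fold change of the 10 members was 0.09 in HCT116 and -0.07 in LoVo, against -0.002 and 0.0005 over all genes tested.

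**Figure D1:**
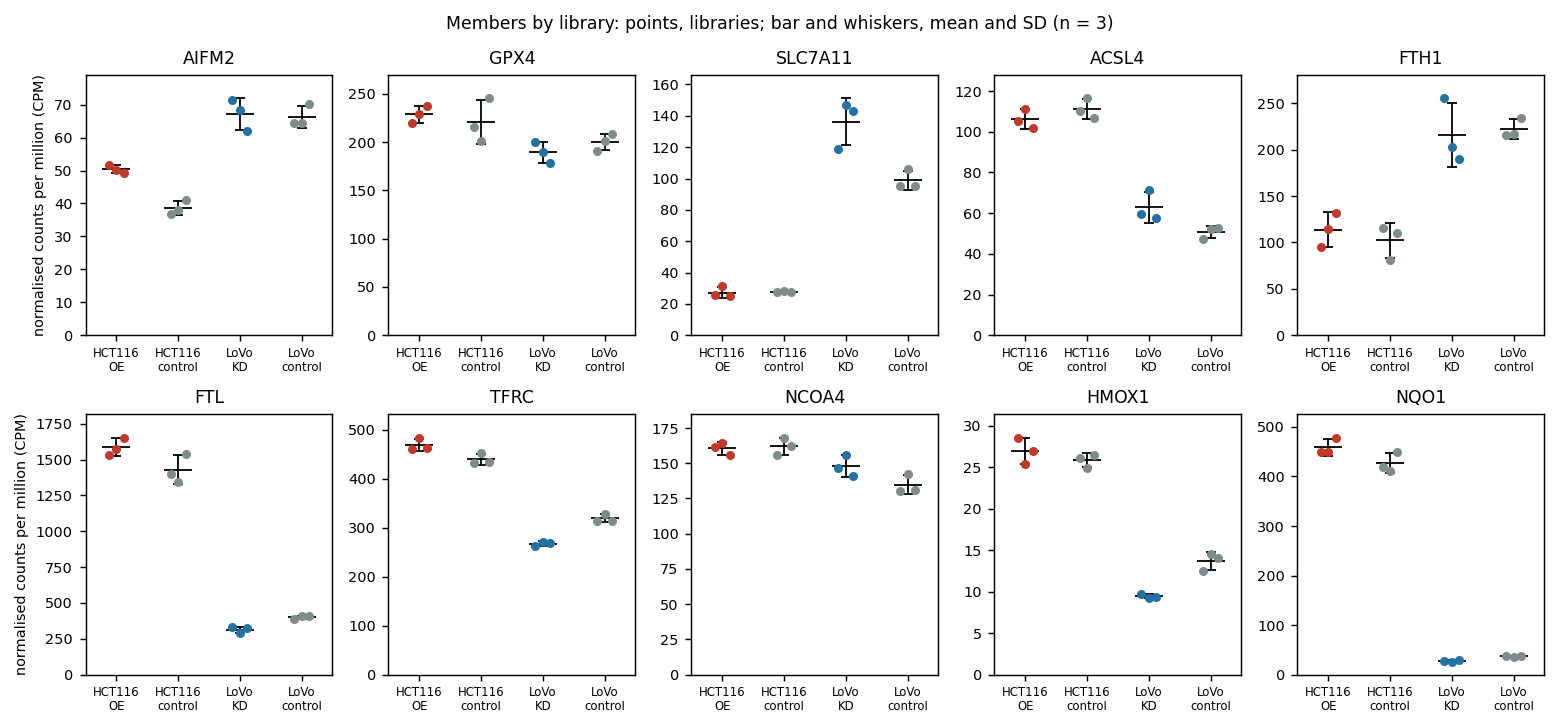
Level of each member in CPM (linear axis from 0) in the 3 libraries of each group; points are libraries, and the bar with whiskers is the mean ± SD. The OE points of AIFM2 and TFRC and the LoVo KD points of SLC7A11, ACSL4, FTL, TFRC, HMOX1 and NQO1 lie clear of their own controls. So did those of 19.0% of all genes in HCT116 and 39.9% in LoVo, and TFRC was not called in HCT116.

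AIFM2 is an oxidoreductase that reduces coenzyme Q at the plasma membrane. Its gene lies on chromosome 10 (70098223 to 70132934, minus strand) (GRCh38). AIFM2 had 51.8, 50.2 and 49.3 CPM in the HCT116 OE libraries, against 36.8, 38.04 and 40.9 CPM in the HCT116 controls. Every OE library was above every control, and the log2 fold change was 0.40 (SE 0.074). Without HCT116 control 1 the log2 fold change was 0.36 and the call was lost. It was also lost on the FPKM scale with limma. In LoVo, AIFM2 had 71.3, 68.3 and 62.0 CPM in the KD libraries, against 64.5, 64.4 and 70.2 CPM in the controls. These groups overlapped, with a log2 fold change of 0.01 (95% interval -0.14 to 0.16). H2AFY2 overlaps AIFM2 on the opposite strand, and the strand setting of the counting is not given, so reads of the pair may not be told apart. H2AFY2 had 1068 to 1118 counts in HCT116 OE and 1048 to 1172 in HCT116 control, against 6 to 18 in LoVo KD and 7 to 17 in LoVo control.

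The promoter of AIFM2 is shown because this gene was the only member called higher with overexpression. Its window also holds a match to the core of the antioxidant response element, the site that NRF2 is known to bind. RefSeq promoter windows, from 250 bases before to 50 after a start on GRCh38.p14, were at hand for 7 of the 10 members (ACSL4, AIFM2, FTL, GPX4, NCOA4, NQO1 and TFRC). The stretch printed lies at chr10:70132828-70132857 on the minus strand, from base -32 to -3 of the RefSeq start, and the capitals mark the match, from base -22 to -14.
AIFM2 promoter: cagcacgagtGCTGAGTCAcgccccgcccg
Read on the other strand, the capitals hold TGACNNNGC, the core searched, and they overlap TGANTCA, the AP-1 element. GENCODE v29 puts the start of AIFM2 109 bases further upstream, so the site may be transcribed. On both strands, TGACNNNGC was found in the windows of 2 of the 7 members, AIFM2 and NCOA4, and in 13.35% of 35116 RefSeq promoters of the same length. TGANTCA was also found in AIFM2 and NCOA4 and in 7.71% of all promoters, and the E-box CACGTG in none of the 7 members and in 7.26%. The 7 members had 10 windows, and a member counts where any of its windows matched. The shares over all promoters are per window, so the figures are not like for like. In NCOA4 the matches to TGACNNNGC and TGANTCA lie in different windows. A match is a description of these letters.

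SLC7A11 is the light chain of the cystine and glutamate exchanger and lies on chromosome 4 (138164097 to 138242349, minus strand). In LoVo it had 119, 147 and 143 CPM in the KD libraries, against 95.5, 106 and 95.2 CPM in the controls. All 3 KD libraries were above all 3 controls, with a log2 fold change of 0.46 (SE 0.075). The call of SLC7A11 in LoVo did not hold in every alternative setting. In HCT116 it had 25.4, 31.5 and 24.8 CPM with OE, against 27.3, 28.3 and 27.6 CPM in the controls. There the groups overlapped, and the log2 fold change was -0.02 (95% interval -0.21 to 0.18). SLC7A11-AS1, which overlaps it on the opposite strand, had 38 to 49 counts in LoVo KD and 27 to 29 in LoVo control, next to 1773 to 2413 and 1429 to 1657 counts of SLC7A11 in the same groups.

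ACSL4 loads polyunsaturated fatty acids onto coenzyme A and so supplies the lipids that are peroxidised. It lies on chromosome X (109624244 to 109733403, minus strand). ACSL4 had 59.6, 71.6 and 57.4 CPM in LoVo KD, against 47.1, 52.3 and 52.6 CPM in LoVo control. The groups did not overlap, and KD library 2 was the highest. The log2 fold change was 0.31 (SE 0.083), and the call was lost without KD 2 (log2 fold change 0.20) and without LoVo control 1, as well as on the FPKM scale. In HCT116, ACSL4 had 105, 111 and 102 CPM with OE, against 110, 116 and 107 CPM in the controls, and the groups overlapped.

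GPX4, the selenoenzyme that reduces phospholipid hydroperoxides, lies on chromosome 19 (1103926 to 1106791, plus strand). GPX4 averaged 229 ± 8.87 CPM in HCT116 OE and 221 ± 22.5 CPM in HCT116 control, and 189 ± 10.7 CPM in LoVo KD and 199.9 ± 8.45 CPM in LoVo control (SD, n = 3 each). Its log2 fold change was 0.06 in HCT116 (95% interval -0.07 to 0.19) and -0.08 in LoVo (95% interval -0.21 to 0.04). Both pairs of groups overlapped.

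**Figure D2:**
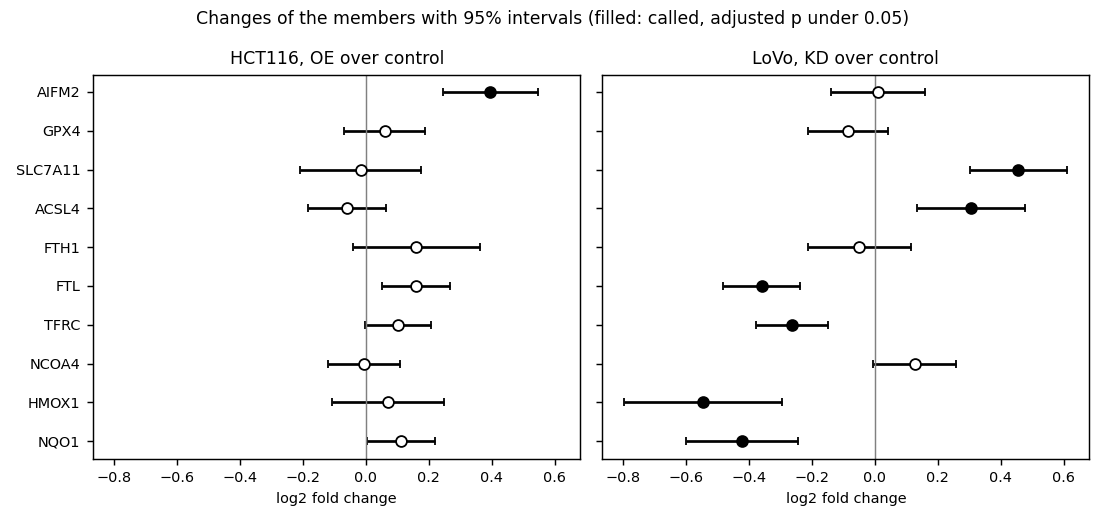
Log2 fold change of each member (OE over control in HCT116, KD over control in LoVo) with its 95% interval. The intervals were derived from the edgeR test and are not adjusted for the number of genes. Filled points are called. AIFM2 is the filled point in HCT116 at 0.40, and 6 members are filled in LoVo, between -0.55 and 0.46.

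Both ferritin genes and TFRC carry iron-responsive elements, hairpins in the messenger RNA that the iron regulatory proteins bind when iron is low. Binding in the 5′ UTR is known to hold back translation of ferritin, and binding in the 3′ UTR to protect TFRC messenger from decay. The elements are shown because these genes share them. GENCODE v29 coding transcripts were searched for a bulged C, 5 bases, a loop and 5 bases that pair with the first 5. The loop was CAGTG followed by A, C or T, and G-U pairs were allowed. Such elements were found in FTH1, FTL and TFRC and in none of the other 7 members. The search takes only this form, so elements of another form, in these or other genes, would be missed. Of 19684 genes with a coding transcript, 214 (1.09%) held such a match, SLC40A1, the iron exporter, among them. Each line gives the 17 bases of the element with 6 bases on either side, the loop in capitals, and the coordinates are those of the 17 bases on GRCh38.
FTH1 5′ UTR, chr11:61967580-61967596, minus strand: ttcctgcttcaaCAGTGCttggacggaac
FTL 5′ UTR, chr19:48965341-48965357, plus strand: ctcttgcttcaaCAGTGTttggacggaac
TFRC 3′ UTR, chr3:196050985-196051001, minus strand: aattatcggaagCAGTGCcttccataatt
TFRC 3′ UTR, chr3:196050581-196050597, minus strand: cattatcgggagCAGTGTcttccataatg
TFRC 3′ UTR, chr3:196050516-196050532, minus strand: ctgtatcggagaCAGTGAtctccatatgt
TFRC 3′ UTR, chr3:196050469-196050485, minus strand: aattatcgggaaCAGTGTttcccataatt

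FTL, the ferritin light chain, was the most abundant member per length in all 4 groups. In LoVo, FTL had 330, 289 and 321 CPM in the KD libraries, against 387, 407 and 406 CPM in the controls. Every KD library was below every control, with a log2 fold change of -0.36 (SE 0.059), and the call held in all 15 alternative settings. In HCT116, FTL had 1529, 1575 and 1654 CPM with OE, against 1401, 1342 and 1540 CPM in the controls. The groups overlapped, the log2 fold change was 0.16 (SE 0.053), and FTL was called in 3 of 15 alternative settings. The 16 annotated FTL pseudogenes took at most 0.607% of the family's counts in any library.

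TFRC, the transferrin receptor, lies on chromosome 3 (196027183 to 196082189, minus strand). It had 262, 270 and 269 CPM in LoVo KD, against 314, 328 and 314 CPM in LoVo control. The 2 groups stood apart, with a log2 fold change of -0.26 (SE 0.055), and the call held in all 15 alternative settings. In HCT116, TFRC had 461, 484 and 462 CPM with OE, against 431, 453 and 435 CPM in the controls. These groups did not overlap either, yet the log2 fold change of 0.10 (95% interval -0.002 to 0.21) was not called. In all, 2 of 10 members did not overlap between groups in HCT116, where 19.0% of all genes did not, and 6 of 10 in LoVo, where 39.9% did not.

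FTH1, the ferritin heavy chain that oxidises iron for storage, varied more among replicates than any other member in both HCT116 groups. It lies on chromosome 11 (61959718 to 61967660, minus strand). FTH1 had 94.6, 114 and 132 CPM in HCT116 OE, against 115, 80.7 and 111 CPM in HCT116 control, a coefficient of variation of 16.5% with OE and 18.3% in the controls. In LoVo it had 256, 203 and 190 CPM in the KD libraries, against 216, 217 and 235 CPM in the controls. KD library 1 was the highest of these 6, and the log2 fold change was -0.05 (95% interval -0.21 to 0.11). Without KD 1 it was -0.19 and FTH1 was called. The 25 annotated FTH1 pseudogenes took 1.19% to 2.62% of the family's counts, and BEST1, which overlaps FTH1 on the opposite strand, had 26 to 55 counts in LoVo KD and 21 to 25 in LoVo control.

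NCOA4, the receptor that delivers ferritin for degradation, averaged 161 ± 4.46 CPM in HCT116 OE and 162 ± 6.05 CPM in HCT116 control. It averaged 148 ± 7.74 CPM in LoVo KD and 135 ± 6.70 CPM in LoVo control (SD, n = 3 each). Neither change was called, with log2 fold changes of -0.005 in HCT116 and 0.13 in LoVo (95% interval -0.004 to 0.26).

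HMOX1 is heme oxygenase, which frees iron from heme. It was the scarcest member in LoVo by CPM and lies on chromosome 22 (35380361 to 35394214, plus strand). HMOX1 had 9.74, 9.25 and 9.36 CPM in LoVo KD, against 12.5, 14.6 and 14.1 CPM in LoVo control. Every KD library was below every control, and its log2 fold change of -0.55 (SE 0.12) had the largest size of the 10 in LoVo. HMOX1 averaged 27.0 ± 1.58 CPM in HCT116 OE and 25.8 ± 0.849 CPM in HCT116 control, with overlap and a log2 fold change of 0.07.

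NQO1, a quinone reductase, lies on chromosome 16 (69706996 to 69726951, minus strand). It had 27.1, 25.7 and 29.7 CPM in LoVo KD, against 38.4, 34.8 and 36.6 CPM in LoVo control. The KD libraries were all lower, with a log2 fold change of -0.42 (SE 0.086). In HCT116, NQO1 had 449, 450 and 479 CPM with OE, against 419, 412 and 449.9 CPM in the controls, and the groups overlapped at a log2 fold change of 0.11 (95% interval 0.004 to 0.22). The calls of HMOX1 and NQO1 in LoVo held in all 15 alternative settings.

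The control cells of LoVo and HCT116 were compared next. The members were chosen with earlier results of these data known, so their calls and adjusted p-values here are a description too. This comparison shares its control libraries with the changes above, and line, vector and any difference in handling cannot be told apart in it. All 10 members were called by edgeR, 3 higher and 7 lower in LoVo, where 79.0% of 17143 genes were called, 39.0% higher and 39.9% lower. The largest difference was in NQO1, with 36.6 ± 1.80 CPM in LoVo control and 427 ± 20.2 CPM in HCT116 control (log2 fold change -3.54, SE 0.063, edgeR adjusted p = 2.63e-29). SLC7A11 was higher in LoVo, with 98.9 ± 6.11 CPM against 27.8 ± 0.527 CPM in HCT116 (log2 fold change 1.84, adjusted p = 6.95e-21).

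The ferritin chains differed in opposite directions. FTL averaged 399.9 ± 10.97 CPM in LoVo control and 1428 ± 102 CPM in HCT116 control (log2 fold change -1.83, edgeR adjusted p = 6.54e-23). FTH1 averaged 222 ± 10.6 CPM in LoVo control and 102 ± 18.7 CPM in HCT116 control (log2 fold change 1.13, edgeR adjusted p = 4.41e-14). ACSL4 was lower in LoVo by 1.13 on the log2 scale (log2 fold change -1.13, edgeR adjusted p = 1.68e-16), and HMOX1 likewise (-0.91, adjusted p = 1.27e-09). AIFM2 was higher by edgeR (0.79, adjusted p = 1.46e-11). H2AFY2, which overlaps AIFM2 on the opposite strand, had 1048 to 1172 counts in HCT116 control and 7 to 17 in LoVo control. Its part in the AIFM2 difference was not tested. TFRC (-0.46, adjusted p = 2.09e-09) and NCOA4 (-0.26, adjusted p = 8.55e-05) were lower in LoVo by edgeR. For GPX4 the log2 fold change of -0.14 was just past the threshold (edgeR adjusted p = 0.0451), and the call was lost in 9 of 15 alternative settings, with the adjusted p between 0.00551 and 0.744. The lost settings include leaving out HCT116 control 3 or any 1 of the 3 LoVo controls. Apart from GPX4, whose groups overlapped, each member lay on one side in 3 of 3 libraries, as did 79.7% of all genes.

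Per length, as deposited FPKM, the order of the members also differed between the lines. In LoVo control FTL led at 479 ± 11.9 FPKM, followed by FTH1 at 116 ± 4.92 and GPX4 at 113 ± 4.27 FPKM, which lay within their spread of each other. NCOA4 (35.3 ± 1.83 FPKM) and TFRC (19.2 ± 0.534 FPKM) came next. The order between genes rests on the lengths behind the FPKM values, 17376 bases for TFRC and 3988 for NCOA4. By CPM, TFRC (319) was above NCOA4 (135) in LoVo control. AIFM2 (13.5 ± 0.604 FPKM) and NQO1 (12.9 ± 0.649 FPKM) lay within their spread of each other, above SLC7A11 (10.7 ± 0.686 FPKM), HMOX1 (6.21 ± 0.468 FPKM) and ACSL4 (5.31 ± 0.305 FPKM).

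In HCT116 control FTL stood at 1593 ± 111 FPKM and NQO1 came second at 139.7 ± 6.42 FPKM. GPX4 (117 ± 11.7 FPKM), FTH1 (49.5 ± 8.93 FPKM), NCOA4 (39.5 ± 1.60 FPKM) and TFRC (24.6 ± 0.717 FPKM) followed. By CPM, TFRC (440) was again above NCOA4 (162). HMOX1 (10.9 ± 0.328 FPKM) and ACSL4 (10.8 ± 0.501 FPKM) could not be separated, and AIFM2 (7.30 ± 0.404 FPKM) and SLC7A11 (2.80 ± 0.0623 FPKM) were the lowest.

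**Figure D3:**
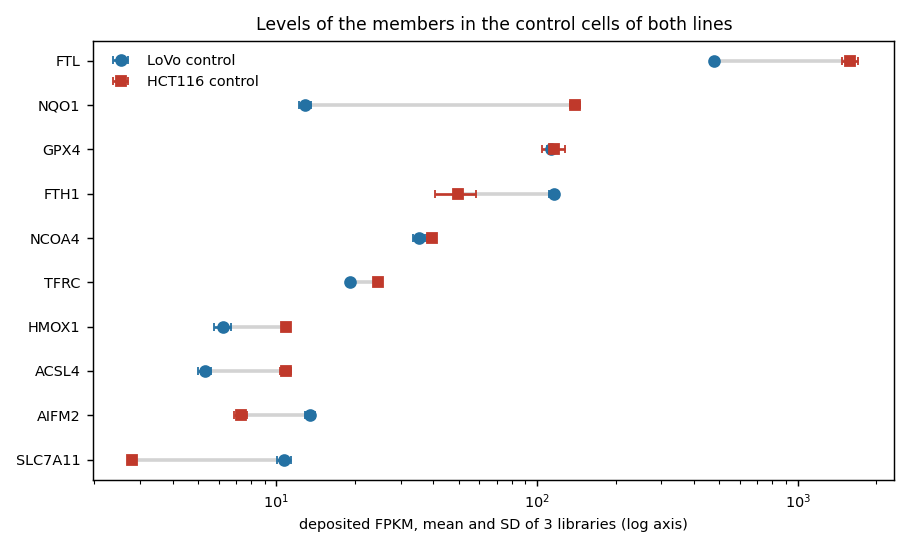
Mean deposited FPKM (log axis) of each member in LoVo control (circles) and HCT116 control (squares), with SD of 3 libraries. NQO1 shows the widest gap, 12.9 against 139.7 FPKM, and FTH1, SLC7A11 and AIFM2 are the 3 members to the right in LoVo.

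The other genes of these pathways were taken from 4 lists with 142 genes. In HCT116, 2 of the 130 that passed the filter were called with OE (1.54%, against 0.914% of all genes). SAT1, the polyamine acetyltransferase known to promote lipid peroxidation, fell to 604 ± 35.3 CPM in OE, against 834 ± 42.6 CPM in control (log2 fold change -0.46, SE 0.054, edgeR adjusted p = 1.33e-05), with 3 of 3 OE libraries lower. KEAP1, the adaptor that marks NRF2 for degradation, rose to 97.9 ± 5.22 CPM in OE, against 82.4 ± 2.41 CPM in control (log2 fold change 0.26, SE 0.062, edgeR adjusted p = 0.0389). All 3 OE libraries of KEAP1 were above the controls, yet the call was lost with any 1 of the 6 libraries left out. None of 27 glutathione and NADPH genes and none of 32 iron genes was called there.

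In LoVo, 38 of 132 such genes were called with KD, 27 higher and 11 lower (28.8%, against 26.3% of all genes, 12.6% of which were called higher and 13.7% lower). The share called was 41.2% in the lipid list, 17.2% in the glutathione and NADPH list, 28.1% in the iron list and 27% in the NRF2 list, and no difference between the lists was tested. For each gene named below as risen or fallen in LoVo, all 3 KD libraries lay on 1 side of all 3 controls. Of the 34 genes of lipid peroxidation and its repair, 9 rose and 5 fell. MBOAT1, a membrane-bound phospholipid acyltransferase, rose to 38.8 ± 0.932 CPM in KD, against 26.5 ± 0.640 CPM in control (log2 fold change 0.54, edgeR adjusted p = 2.94e-05). VDAC2, a mitochondrial channel, rose by 0.39 (adjusted p = 9.4e-05), and so did SAT1 by 0.39 (adjusted p = 0.00104) by edgeR. The calls of SAT1 in both lines were lost with limma on all 3 FPKM settings. POR, the oxidoreductase that feeds electrons to cytochromes P450, fell to 141 ± 17.0 CPM in KD, against 181 ± 3.30 CPM in control (log2 fold change -0.37, edgeR adjusted p = 0.000495). FADS2, a fatty acid desaturase (-0.57, adjusted p = 0.00103), and DHCR7, an enzyme of cholesterol synthesis (-0.27, adjusted p = 0.00283), also fell by edgeR. With limma on log2(FPKM + 1), the call of FADS2 was lost with and without the filter, and that of DHCR7 without it.

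Of the 29 glutathione and NADPH genes, 4 rose and 1 fell. GPX2, a glutathione peroxidase of the gut epithelium, had 54.6, 58.5 and 49.3 CPM in LoVo KD, against 21.6, 25.8 and 26.8 CPM in LoVo control. Its log2 fold change was 1.12 (SE 0.091, edgeR adjusted p = 2.92e-09), larger than that of any member. GPX2 did not pass the filter in HCT116, with 22 counts over the OE libraries and 19 over the controls. GCLC, the catalytic subunit of the first enzyme of glutathione synthesis, rose to 90.0 ± 3.43 CPM in KD, against 70.2 ± 5.89 CPM in control (log2 fold change 0.35, edgeR adjusted p = 0.000803), while its modifier subunit GCLM was not called (0.006, adjusted p = 0.972). The GCLC call was lost with limma on log2(FPKM + 1) and no filter. IDH1, which makes NADPH in the cytosol, rose (0.34, edgeR adjusted p = 0.000167). SLC3A2, the heavy chain that pairs with SLC7A11, was not called in LoVo (-0.04, edgeR adjusted p = 0.682) or in HCT116 (0.15, adjusted p = 0.176).

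Of the 32 iron genes, 8 rose and 1 fell. HEPH, a ferroxidase that works with iron export, rose to 102 ± 2.52 CPM in KD, against 79.2 ± 2.12 CPM in control (log2 fold change 0.37, edgeR adjusted p = 0.000175). PCBP2, an iron chaperone and RNA-binding protein (0.34, adjusted p = 0.000595), and SLC39A8, a metal importer (0.48, adjusted p = 0.00731), rose by edgeR. The call of SLC39A8 was lost without KD 2. The genes of both iron regulatory proteins rose, ACO1 by 0.25 (edgeR adjusted p = 0.0135) and IREB2 by 0.23 (adjusted p = 0.0173). Both calls were lost without KD 3 or control 3 and with limma on all 3 FPKM settings, and that of ACO1 also without control 1. STEAP3, an endosomal ferrireductase, fell (-0.29, edgeR adjusted p = 0.00627), a call lost without control 1. SLC40A1 was scarce, with 125 counts over KD and 142 over control, and was not called (-0.20, edgeR adjusted p = 0.553).

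Of the 37 NRF2 regulators and further targets, 6 rose and 4 fell. NFE2L2 itself rose to 109 ± 0.427 CPM in KD, against 89.5 ± 1.64 CPM in control (log2 fold change 0.27, SE 0.062, edgeR adjusted p = 0.00204). BACH1, a repressor of HMOX1, rose to 41.2 ± 1.65 CPM in KD, against 32.4 ± 1.26 CPM in control (0.34, edgeR adjusted p = 0.00257). KEAP1 was not called (-0.13, edgeR adjusted p = 0.159). ABCC3, an export pump, rose (0.42, edgeR adjusted p = 3.67e-05), as did UGT1A6, a glucuronosyltransferase (0.58, adjusted p = 9.45e-05). UGT1A6 shares its last exons with the other UGT1A genes, so its counts are uncertain to that extent. NFE2L1, a relative of NRF2 (-0.22, edgeR adjusted p = 0.0157), EPHX1, an epoxide hydrolase (-0.25, adjusted p = 0.0208), and DPP3, a peptidase that binds KEAP1 (-0.30, adjusted p = 0.0216), fell. The call of NFE2L1 was lost without KD 2 or control 3, and that of EPHX1 without KD 3, control 1 or control 3. That of DPP3 was lost without KD 2, KD 3, control 2 or control 3. With limma on FPKM, the calls of NFE2L1 and DPP3 were lost in all 3 settings. That of EPHX1 was lost on log2(FPKM + 0.1) and on log2(FPKM + 1) with no filter, and that of BACH1 in the latter.

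**Figure D4:**
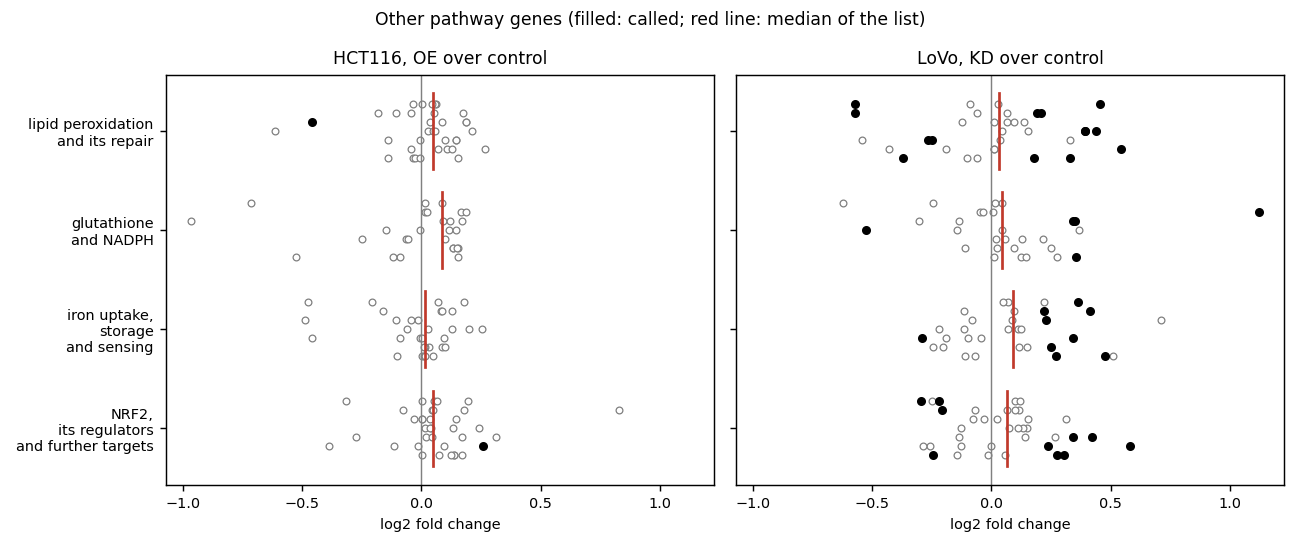
Log2 fold change of each other pathway gene that passed the filter, by list, in HCT116 (OE over control) and LoVo (KD over control); filled points are called and the red line is the median of the list. HCT116 has 2 filled points, SAT1 and KEAP1, and LoVo has 38, with GPX2 farthest out at 1.12.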

How the data were processed

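Gene expression was measured in 12 libraries. The deposited count table holds raw whole-number read counts per Ensembl gene. The deposited FPKM table holds the same counts per total count and per gene length, as its values show. The submitters' processing notes name HISAT2 2.1.0 and the build GRCh38. Which counter, annotation release and strand setting were used is not given in the sources used here. Columns headed Vector were taken as the HCT116 control, the least certain mapping. The labels' extract protocol speaks of retinas, whereas all other labels name cell lines.

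Counts were fitted with edgeR 4.0.16 in R 4.3.3 (TMM, filterByExpr, quasi-likelihood F test, Benjamini-Hochberg adjustment over all genes tested, threshold 0.05), per comparison. The biological coefficient of variation was 6.00% in HCT116 and 6.41% in LoVo. The difference between the changes of the lines was fitted over all 12 libraries. Correlations within a group ran from 0.995 to 0.996, and the counts of replicates differed by more than sampling noise. Each library was fitted as 1 replicate, although this spread may still be technical. Standard errors were the size of the log2 fold change divided by the square root of edgeR's F. Intervals (95%) were built from them with a t quantile. They include the spread between libraries and are not adjusted for the number of genes tested.

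Alternatives were DESeq2 1.42.0, RLE and upper quartile factors, no filter, limma 3.58.1 on log2(FPKM + 1) and log2(FPKM + 0.1) with a filter (0.5 FPKM in 3 libraries) and on log2(FPKM + 1) without it, 1 fit over all 12 libraries, a replicate block, and each library left out. FPKM fold changes with a pseudocount understate changes of low genes.

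Members and lists were chosen with earlier results of these data known. Named are the 10 members, up to 3 called genes with the smallest p per line, list and direction, and SLC3A2, GCLC, GCLM, NFE2L2, KEAP1, BACH1, IREB2, ACO1 and SLC40A1 in any case. A further gene that this rule named is not reported here. Promoters are RefSeq on GRCh38.p14, and transcripts GENCODE v29.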

Additional observations from a re-analysis of the deposited data

Results flagged for a closer look

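For the genes below, the change with KD in LoVo and the change with OE in HCT116 differed by edgeR's test of the difference over all 12 libraries, in which 11.6% of 18199 genes were called. Each value is the LoVo change minus the HCT116 change on the log2 scale. The lines received different manipulations, and line and manipulation cannot be told apart in it. Of the 10 members, 7 were called. The members were chosen with both changes known, so their values are a description. The differences were 0.49 for SLC7A11 and 0.38 for ACSL4, and -0.37 for AIFM2, -0.50 for FTL, -0.35 for TFRC, -0.60 for HMOX1 and -0.52 for NQO1. GPX4, FTH1 and NCOA4 were not called. Of 20 alternatives, the call held in 13 for ACSL4, 17 for SLC7A11, 18 for AIFM2 and all 20 for the other 4. The call of ACSL4 was lost without HCT116 OE 3, HCT116 control 2, LoVo KD 2 or LoVo control 1, and that of AIFM2 without LoVo KD 3 or LoVo control 3.

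Among the other pathway genes, 20 of 136 were called for this difference. Of the genes named here, positive differences were found for SAT1 (0.86, edgeR adjusted p = 5.1e-07), ABCC3 (0.71, adjusted p = 5.67e-06), IDH1 (0.41), MBOAT1 (0.41), PCBP2 (0.35), VDAC2 (0.32) and IREB2 (0.29, adjusted p = 0.0498). SAT1 was called lower with OE in HCT116 and higher with KD in LoVo. Negative differences were found for FADS2 (-0.56), POR (-0.42), KEAP1 (-0.38), STEAP3 (-0.37), EPHX1 (-0.31), DHCR7 (-0.28) and NFE2L1 (-0.25, adjusted p = 0.0483 by edgeR). Of 20 alternatives, the call held in 4 for IREB2, 6 for MBOAT1, 10 for NFE2L1, 11 for PCBP2, 11 for EPHX1, 15 for VDAC2, 16 for FADS2 and 16 for DHCR7. It held in 19 for POR, KEAP1 and STEAP3 and in all 20 for SAT1, ABCC3 and IDH1. The call of MBOAT1 was lost without each of 11 single libraries, all but HCT116 control 3. That of IREB2 was lost without each of 9, all but HCT116 OE 2, LoVo KD 1 and LoVo control 2. That of EPHX1 was lost without 7 single libraries (HCT116 OE 1 and 3, HCT116 control 1 and 2, LoVo KD 3, LoVo control 1 and 3), that of NFE2L1 without 7 (HCT116 OE 1 and 3, HCT116 control 2 and 3, LoVo KD 2, LoVo control 1 and 3) and that of PCBP2 without 6 (HCT116 OE 1, HCT116 control 1 and 3, LoVo KD 2, LoVo control 1 and 3). That of DHCR7 was lost without HCT116 OE 3, HCT116 control 2 or LoVo control 3, that of VDAC2 without HCT116 OE 1 or LoVo control 1, and that of FADS2 without LoVo control 1.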

How the results depend on the processing

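In HCT116, the 1 member called became 0 with limma on each of the 3 FPKM settings, 2 with no filter on low counts, 3 with the replicate block and 0 to 2 with each library left out. The 2 other pathway genes called there became 4 with DESeq2, 1 with upper quartile factors, 1 with all 12 libraries in 1 fit, 0 with limma on each of the 3 FPKM settings, 16 with the replicate block and 1 to 3 with each library left out. In LoVo, the 38 other pathway genes called became 21 with limma on log2(FPKM + 1), 21 on log2(FPKM + 0.1) and 9 on log2(FPKM + 1) with no filter, and the 6 members ran from 4 to 7 over all 15 alternatives. For the difference between the lines, the 20 other pathway genes called became 11 with log2(FPKM + 0.1), 6 with log2(FPKM + 1) and no filter, 37 with the replicate block and 11 to 26 with each library left out. Between the control groups, 9 or 10 members and 96 to 114 other pathway genes were called. Over all genes, the 146 calls in HCT116 became 3 to 1322 and the 4278 in LoVo became 1061 to 5588. The cause was not tested.

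The replicate numbers do not pair the libraries by the labels. Deviations of same-numbered libraries correlated at 0.058 to 0.070 in HCT116 and 0.001 to 0.14 in LoVo. There 6 of 6 and 4 of 6 libraries correlated best with their own number, a hint from the data only. Between LoVo control and HCT116 control, 5 of 6 did so, with correlations of 0.015 to 0.091 for same-numbered libraries. All 94 called changes of named genes kept their sign in every alternative, and 50 of them their call. Of 61 changes that were not called, 42 kept their sign, and those that turned were at most 0.07 in size. With 14.46 to 17.23 M counts per library, the depth limits mainly scarce genes such as SLC40A1 and SNORA5C.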

Other observations

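Other pathway genes also differed between the control cells of the lines, with 54 higher and 56 lower in LoVo among 135 tested (edgeR, against 79.0% of all genes called). HEPH had 79.2 ± 2.12 CPM in LoVo control and 0.756 ± 0.208 CPM in HCT116 control (log2 fold change 6.70, edgeR adjusted p = 3.29e-28). GPX2 had 24.7 ± 2.76 CPM in LoVo control and 0.391 ± 0.139 CPM in HCT116 control (log2 fold change 5.97, edgeR adjusted p = 1.32e-21). SAT1 was lower in LoVo control, with 55.8 ± 6.49 CPM against 834 ± 42.6 CPM in HCT116 control (log2 fold change -3.90, edgeR adjusted p = 4.92e-29). KEAP1 (0.73, adjusted p = 9.1e-13) and SLC3A2 (0.98, adjusted p = 9.19e-17) were higher in LoVo control by edgeR, and ACO1 (-0.92, adjusted p = 1.35e-14) was lower. NFE2L2 (0.04, adjusted p = 0.507) and GCLM (-0.04, adjusted p = 0.633) were not called by edgeR. For each gene named here as higher or lower, the 3 LoVo control libraries lay on 1 side of the 3 HCT116 control libraries, as they did in 79.7% of all genes.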
